A study of Mus musculus with 5 samples.

Results

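Mouse osteoclastogenic co-cultures with and without Fos were compared over all 5 arrays of the study, 2 Fos+/+ and 3 Fos-/-. The Fos+/+ arrays held 1 culture of splenocytes and 1 of bone-marrow cells. The Fos-/- arrays all held splenocytes, 1 without virus, 1 infected with a deltaNFAT virus and 1 infected with a virus expressing GFP, the green fluorescent protein that served as virus control. All 5 cultures were grown for 6 days on ST2-T stromal cells, a supporting cell layer, with dexamethasone (a glucocorticoid) and 1,25-dihydroxyvitaminD3, and each dish was taken whole for total RNA. The ages of the mice, how many mice gave cells, the dose of virus and the make-up of deltaNFAT do not appear in the labels. The virus was given only to Fos-/- cells and bone marrow was taken only from Fos+/+ mice. Tissue and virus are therefore spread unevenly over the genotypes, and the arrays of one genotype are not replicates of one condition. Each of the 5 conditions was measured once.

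Osteoclasts are large multinucleated cells that fuse from precursors of the monocyte and macrophage lineage and dissolve bone by secreting acid and proteases. Their formation needs the cytokine RANKL, which stromal cells display when treated with active vitamin D and glucocorticoid, and its receptor RANK on the precursor. The product of Fos pairs with Jun proteins to form AP-1, a transcription factor, and mice without it lack osteoclasts and keep precursors of the macrophage lineage. NFATc1, made by the gene Nfatc1, is a transcription factor induced by RANK signalling that acts after Fos and drives osteoclast genes.

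The table gave 1 linear intensity per probe set and array, and every value below is such an intensity unless another scale is named. Of 12488 probe sets, 10833 that were not controls carried 1 gene symbol, for 8251 genes. Arrays differed little in technical measures. Between 58.2 and 62.1% of the probe sets lay above the floor of 20 used here, and the Actb control read 1.02 to 1.31 times as bright at its 3-prime end as at its 5-prime end. Fos itself checked no label. Its brighter probe set read 848 and 614 in the Fos+/+ arrays and 426, 581 and 607 in the Fos-/- arrays, its other probe set lay under the floor everywhere, and the stromal cells of each dish have their own Fos. Because dishes were harvested whole, fewer cells of a type and less RNA per cell cannot be told apart.

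A probe set was counted as separated when the lowest array of one genotype lay at least 2-fold above the highest array of the other, with values under 20 set to 20 and the lowest array of the brighter genotype at 40 or more. The fold given for a gene below is this smallest possible ratio between the genotypes, not a ratio of means, and it is a lower bound ("at least") where the dimmer genotype was under the floor throughout. Of 5277 probe sets bright enough, 54 were separated with Fos+/+ higher (1.02%), for 51 genes (1.11% of 4584), and 28 with Fos+/+ lower (0.531%), for 28 genes (0.611%). A gap of any size was seen for 894 and 590 probe sets, and a gap of 4-fold for 7 and 0. The median fold was 2.57 for the higher probe sets and 2.27 for the lower ones. Many of these were dim, as 20 of the 54 and 15 of the 28 had a brighter side whose lowest array read under 100.

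**Figure D1:**
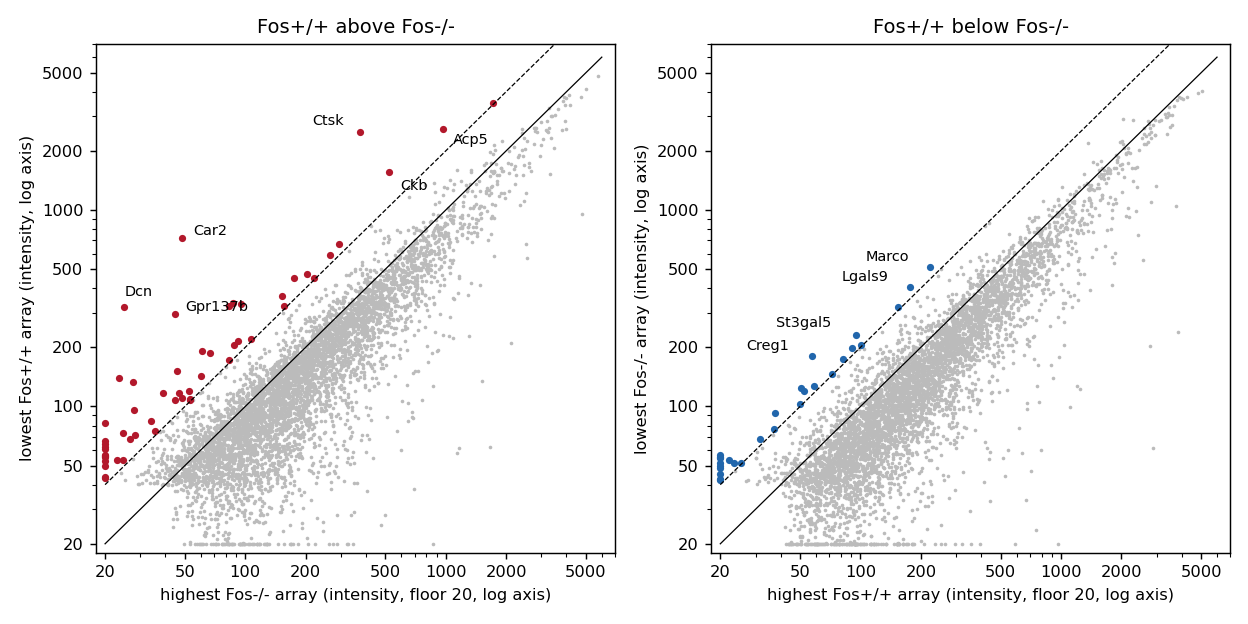
Each point is 1 probe set with the highest array of one genotype on the x axis and the lowest array of the other on the y axis (intensity, floor of 20, log axes), with Fos+/+ above Fos-/- on the left and below it on the right. The solid line marks equality and the dashed line a 2-fold gap, beyond which lie the 54 red and 28 blue probe sets; Car2, Dcn and Ctsk stand farthest from the rest.

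The same arrays were fitted with limma, which tests the difference between the genotype means on the log2 scale over 6032 probe sets and takes tissue and virus as part of the spread. One probe set passed a Benjamini-Hochberg adjusted p of 0.05 with Fos+/+ higher (0.0166%) and 0 with Fos+/+ lower. At an unadjusted p of 0.05, limma counted 314 higher (5.21%) and 248 lower (4.11%). A single gene cannot be tested by exact permutation here, since 2 arrays against 3 give no two-sided p below 0.2. Apart from 1 gene, then, the folds below describe 5 arrays and did not pass a test over all probe sets.

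That gene was Dcn, which encodes decorin, a small proteoglycan that binds collagen fibrils in connective tissue. With Fos, Dcn read 319.7 in the spleen culture and 320.5 in the bone-marrow culture; without Fos it read 14.1 uninfected, 24.9 with deltaNFAT and 11.3 with GFP. Both Fos+/+ arrays agreed within 1 unit, and no Fos-/- array came near them. Dcn rose in Fos+/+ by 3.90 on the log2 scale (SE 0.30, limma adjusted p = 0.0376), and its smallest ratio was 12.8-fold. The call was lost with virus as a covariate (limma adjusted p = 0.233), at a floor of 10 (0.182), and without Fos-/- spleen without virus (0.0808) or the GFP array (0.183), and it held without the deltaNFAT array (0.0290). It was also lost without Fos+/+ spleen (limma adjusted p = 0.546, log2 difference 3.90) or Fos+/+ bone marrow (0.231, 3.89). The remaining Fos+/+ array is then assumed to vary like the Fos-/- arrays, which alone give the spread. Of the other 28 stromal and fibroblast genes bright enough, 0 were separated, beside 1.11% of all genes higher and 0.611% lower. The 35 genes of that list summed to 26798 and 27606 in the Fos+/+ arrays and to between 29826 and 30563 in the Fos-/- arrays, so the list as a whole read lower with Fos while Dcn read higher. Col5a2, a fibrillar collagen chain, read 816 and 815 in the Fos+/+ arrays and 1206, 1287 and 1110 in the Fos-/- arrays (limma adjusted p = 0.266).

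Genes for the bone-resorbing machinery of osteoclasts were the list with the most members above the gap. Of 16 osteoclast list genes bright enough to be counted, 12 were separated with Fos+/+ higher and 0 lower, beside 1.11 and 0.611% of all genes. The median difference over the list's 20 fitted probe sets was 1.88 on the log2 scale, against 0.02 over all fitted probe sets. Of the 20, 19 had an unadjusted limma p under 0.05 with Fos+/+ higher, against 5.21% of all fitted probe sets. Summed intensity over the 19 list genes on the array was 20104 and 14829 with Fos and between 2935 and 5394 without. The list was drawn up with earlier results of these data known.

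Car2 encodes carbonic anhydrase II, which supplies the protons that osteoclasts secrete. It read 971 and 719 in the Fos+/+ spleen and bone-marrow cultures, and 13.9, 48.4 and 13.0 in the Fos-/- cultures without virus, with deltaNFAT and with GFP. Both Fos+/+ arrays were far above the rest and only the deltaNFAT array exceeded the floor among the others. The smallest ratio was 14.8-fold, the largest of all probe sets, with a log2 difference of 4.96 (SE 0.45, limma adjusted p = 0.0519).

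Ctsk encodes cathepsin K, the protease that digests bone collagen. In the same order of arrays it read 2862, 2495, 61.3, 372 and 79.3. The deltaNFAT array was highest among the Fos-/- arrays and still 6.71-fold under the lower Fos+/+ array (log2 difference 4.46, SE 0.73, limma adjusted p = 0.186). Acp5, whose acid phosphatase resists tartrate and serves as the histological stain of osteoclasts, read 3836, 2580, 462, 964 and 239. Its smallest ratio was 2.68-fold, and the deltaNFAT array again led the Fos-/- side.

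Promoter windows of these genes, from 250 bases before to 50 bases after an annotated start in RefSeq (GRCm38.p6), are shown for a gene of the osteoclast group, Ctsk (chr3:95498960-95499259, plus strand), for 1 of the 3 annotated starts of Acp5 (chr9:22130549-22130848, minus strand; chosen because the windows of the other starts hold no match), for a mitotic gene, Ccnb2 (chr9:70421505-70421804, minus strand), and for the most separated gene of the lower side, Creg1 (chr1:165763508-165763807, plus strand). Capitals mark matches on either strand to short motifs, which are TGGAAA for NFAT, GAGGAAG for PU.1, TCATGTG for the M-box of MITF and TTTGAA for the cell cycle element called CHR.
Ctsk: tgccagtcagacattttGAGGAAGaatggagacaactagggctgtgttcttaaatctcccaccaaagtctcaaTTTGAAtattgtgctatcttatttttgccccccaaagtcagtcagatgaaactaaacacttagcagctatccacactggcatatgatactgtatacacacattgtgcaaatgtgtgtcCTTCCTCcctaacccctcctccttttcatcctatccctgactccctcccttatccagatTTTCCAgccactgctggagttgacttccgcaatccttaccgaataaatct
Acp5: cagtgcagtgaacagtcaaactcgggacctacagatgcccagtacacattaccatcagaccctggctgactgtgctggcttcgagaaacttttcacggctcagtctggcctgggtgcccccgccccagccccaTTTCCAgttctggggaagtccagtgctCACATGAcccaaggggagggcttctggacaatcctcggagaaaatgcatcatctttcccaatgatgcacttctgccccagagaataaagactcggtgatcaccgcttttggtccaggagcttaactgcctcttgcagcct
Ccnb2: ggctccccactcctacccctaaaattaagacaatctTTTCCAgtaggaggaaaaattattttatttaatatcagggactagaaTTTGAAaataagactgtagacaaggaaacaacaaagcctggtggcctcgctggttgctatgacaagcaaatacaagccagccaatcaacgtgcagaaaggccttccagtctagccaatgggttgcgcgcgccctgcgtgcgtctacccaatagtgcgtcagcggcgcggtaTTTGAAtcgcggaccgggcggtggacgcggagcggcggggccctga
Creg1: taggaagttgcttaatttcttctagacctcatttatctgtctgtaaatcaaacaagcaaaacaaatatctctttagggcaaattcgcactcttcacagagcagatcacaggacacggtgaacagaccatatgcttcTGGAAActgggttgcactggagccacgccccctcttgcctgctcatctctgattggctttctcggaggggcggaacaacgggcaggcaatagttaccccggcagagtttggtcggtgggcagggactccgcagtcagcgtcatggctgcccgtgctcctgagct
The AP-1 motif TGACTCA was in 0 of 51 higher-side windows and in 0 of 31 lower-side windows, and in 5.20% of 32851 windows of all genes. RefSeq windows existed for 40 of 51 genes on the higher side and 23 of 28 on the lower. The NFAT motif was in 11.8% of the higher and 12.9% of the lower windows against 21.4% of all, PU.1 in 13.7 and 19.4% against 13.6%, the M-box in 7.84 and 3.23% against 3.77%, and CHR in 17.6 and 9.68% against 17.9%. These matches describe letters in a short window near the start and say nothing of binding.

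Further genes of the osteoclast list that act at the membrane or in energy supply were separated as well. Ckb, the brain-type creatine kinase that regenerates ATP, read 2784 and 1559 with Fos and 448, 524 and 203 without. That is a gap of 2.98-fold, with Fos+/+ spleen well above Fos+/+ bone marrow. Tcirg1, the osteoclast form of the proton pump's a subunit, read 914 and 452 against 140, 220 and 173 (2.06-fold). Slc9b2, a sodium-proton exchanger, read 357 and 120 against values under the floor in 2 Fos-/- arrays and 52.2 with deltaNFAT (2.30-fold). Itgav, the integrin alpha chain that pairs with beta 3 in osteoclast attachment, read 678 and 588 against 264, 260 and 222 (2.23-fold). Its other fitted probe sets had gaps of 1.93 and 1.37-fold, and the call was lost with the mean of a gene's probe sets. All of these genes had the Fos+/+ spleen array highest.

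Mmp9, a gelatinase, was read by a pair of probe sets that were both separated. The brighter read 3759 and 3504 with Fos against 1046, 1714 and 1188 without (2.04-fold), and the dimmer 620 and 451 against 79.9, 175 and 77.5 (2.58-fold). In both, the deltaNFAT array was the highest of the 3 Fos-/- arrays.

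**Figure D2:**
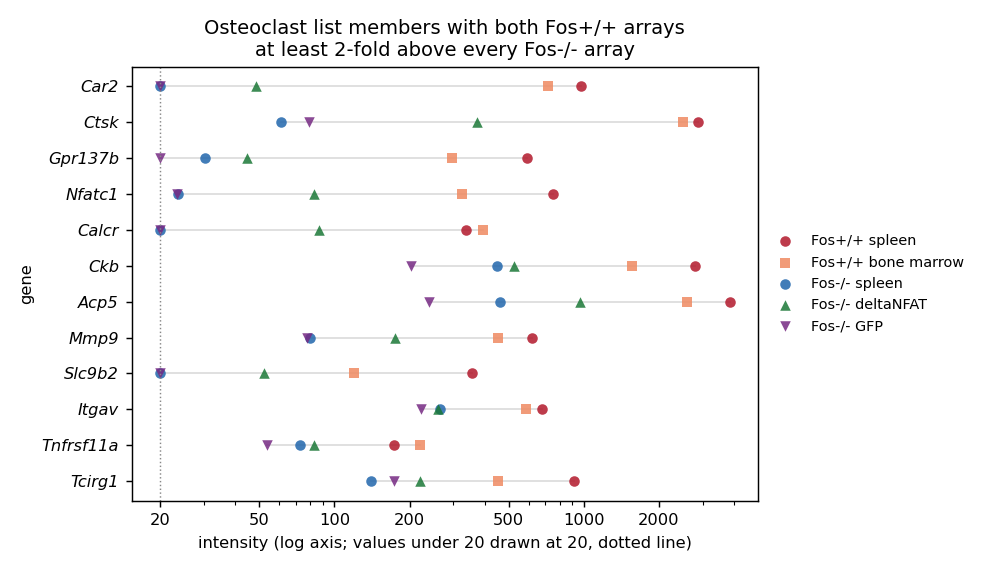
Intensity (log axis, values under 20 drawn at the dotted line) of the 12 separated osteoclast list genes, 1 point per array, with Mmp9 shown by its probe set of the wider gap. By the rule of choice, both Fos+/+ points (red and orange) lie to the right of all 3 Fos-/- points for each gene. The green deltaNFAT point is the highest Fos-/- point except for Itgav.

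Receptors and regulators of the pathway were separated as well. Tnfrsf11a, which encodes RANK, read 173 and 221 with Fos against 72.9, 82.7 and 53.7 without (2.09-fold), and here the bone-marrow array was the higher of the Fos+/+ pair. Calcr, the calcitonin receptor of mature osteoclasts, read 337 and 395 against 86.4 with deltaNFAT and values below 0 in the other Fos-/- arrays (3.90-fold). Nfatc1 read 752 and 325 against 23.5, 82.7 and 23.4 (3.93-fold). Whether the Nfatc1 probe set also reads RNA made from the deltaNFAT virus was not tested. Traf1, an adaptor of TNF receptors, read 156 and 52.9 while all 3 Fos-/- arrays lay under the floor (at least 2.64-fold). Of the 22 genes bright enough in the list of RANK, M-CSF and NF-kB signalling, Tnfrsf11a and Traf1 were the 2 separated. Over all genes the share was 1.11% higher and 0.611% lower. The NF-kB subunit Relb, with 184 and 147 against 134, 109 and 90.8, showed a gap under 2-fold (0.13 on the log2 scale).

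In the NFAT and calcineurin list, Nfatc1 was the 1 gene of 9 separated. Over all genes 1.11% were separated higher and 0.611% lower, so 0 or 1 gene of a short list says little about that list. Its relative Nfatc2 read 234 and 268 against 267, 207 and 205, and the calcineurin regulator Rcan1 read 310 and 158 against 201, 209 and 96.6. The genotypes overlapped for both. Of 8 AP-1 family genes bright enough, 0 were separated either way and the median log2 difference was -0.00. Junb, a partner of Fos, read 486 and 268 against 277, 334 and 298 and overlapped too. Among 13 genes that carry signals from ITAM receptors, which co-stimulate osteoclast formation, Blnk was separated in both of its probe sets. The brighter of them read 152 and 72.9 against 24.0, 19.3 and 24.5 (2.98-fold). Syk, the kinase that binds ITAMs, read 549 and 478 against 336, 289 and 296, a gap of 0.51 on the log2 scale that stayed under 2-fold.

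The remaining osteoclast genes bright enough were not separated by 2-fold but did not overlap either. Such a gap of any size on the higher side was seen for 894 of 5277 bright probe sets. Myo1d, a class I myosin, read 228 and 119 against 42.3, 60.7 and 35.2, a gap of 0.97 on the log2 scale. Snx10, a sorting nexin needed for bone resorption, read 330 and 373 against 75.5, 186 and 159 (gap 0.82). The membrane protease Mmp14 (gap 0.48) and the chloride channel Clcn7 (0.37 in the probe set with the wider gap) completed the 16, while Itgb3 and Mitf were too dim and Src lay below 20 in every array.

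Proton pump subunits read higher with Fos as a group, with smaller gaps. Of 15 V-ATPase genes bright enough, Tcirg1 was the 1 separated, and 11 of 20 fitted probe sets had an unadjusted limma p under 0.05 with Fos+/+ higher, against 5.21% of all. The median log2 difference was 0.65. Atp6v1a, the catalytic subunit, read 1161 and 1300 against 471, 613 and 656. Atp6v1b2, its partner in the pump head, read 1805 and 1344 against 579, 789 and 775. Neither overlapped between the genotypes, with gaps of 0.82 and 0.77 on the log2 scale. A gap of any size on the higher side was seen for 894 of 5277 bright probe sets. The 15 genes summed to 12580 and 9652 with Fos and to between 6764 and 7215 without. Lysosomal enzymes and membrane proteins had a median of -0.18. At an unadjusted limma p of 0.05 they counted 2 of 42 probe sets higher and 6 lower, beside 5.21 and 4.11% of all. Oxidative phosphorylation had a median of 0.24, with 8 of 53 probe sets higher and 0 lower at that p. The genes separated by 2-fold were 0 of 32 and 0 of 45, where the share over all genes was 1.11% higher and 0.611% lower.

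Genes of cell division formed the next largest group above the gap. In the mitosis list 6 of 23 genes bright enough were separated with Fos+/+ higher and 0 lower, beside 1.11 and 0.611% of all genes, with a median log2 difference of 0.92. The DNA replication list had a median of 1.00, with 2 of 17 genes separated upward and 0 downward. Kif22, a kinesin that moves chromosomes, read 216 and 192 with Fos against 37.8, 61.0 and 31.2 without (3.14-fold). Birc5, which encodes survivin of the chromosomal passenger complex, read 158 and 118 against 46.7, 39.0 and 42.6 (2.52-fold). The Fos-/- arrays lay close together for Birc5.

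Ccnb2, a mitotic cyclin, read 359 and 326 against 148, 156 and 115 (2.09-fold), and Cdk1, the kinase that mitotic cyclins activate, read 128 and 108 against 52.8, 51.4 and 35.8 (2.04-fold). Plk1 (at least 3.33-fold in one probe set and 2.55-fold in another) and Aurka (2.33-fold), both mitotic kinases, were dimmer and read under 100 in all arrays. Uhrf1, which guides maintenance DNA methylation, read 94.7 and 68.0 against 26.7 at most (2.55-fold). Dnmt3a, a DNA methyltransferase, read 185 and 143 against 27.0, 55.5 and 60.3 (2.36-fold). Of this group Ccnb2 alone kept its call under every alternative that keeps the 2-fold gap. Which cells of the dish were dividing was not tested.

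Further genes with Fos+/+ higher include several of the widest gaps. Gpr137b, which encodes a lysosomal membrane protein, read 593 and 295 with Fos against 30.3, 44.5 and 7.5 without (6.62-fold); it is also in the osteoclast list. Its near copy Gpr137b-ps read 773 and 470 against 105, 203 and 145 (2.32-fold), and the probe sets may not tell the copies apart. Mst1r, the receptor of macrophage-stimulating protein, read 139 and 168 against 23.5, 4.5 and 15.8 (5.92-fold). The choline transporter gene Slc44a1 followed with 133 and 162 against 21.2, 22.8 and 27.7 (4.79-fold). For both, the bone-marrow array was the higher of the Fos+/+ pair and no Fos-/- array reached 30.

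Tgfbr3, the co-receptor betaglycan, read 113 and 82.8 and lay under the floor in every Fos-/- array (at least 4.14-fold). The ubiquitin ligase gene Rnf19b read 544 and 331 against 59.8, 94.9 and 87.4 (3.49-fold). Igf2r, the mannose 6-phosphate receptor that sorts lysosomal enzymes, read 170 and 152 against 27.3, 45.8 and a value below 0 (3.31-fold). In each of these the Fos+/+ spleen array was highest. Smaller gaps were found for Kcnn4, a calcium-activated potassium channel (3.01-fold), and for Pstpip1, an adaptor of the actin cortex (2.35-fold). Another probe set of Pstpip1 had a gap of 1.09-fold. Cd200, a surface glycoprotein, and Pltp, the phospholipid transfer protein, had gaps of 2.30-fold. Antxr2, an anthrax toxin receptor that binds matrix, read 383 and 367 against 152, 128 and 109 (2.41-fold). Mcpt1, a mast cell protease, read 251 and 217 against 56.8, 92.1 and 62.3 (2.35-fold). Its other probe set lay under the floor in every array, and the call was lost with the mean of a gene's probe sets. Mcpt1 was the 1 separated gene of 3 bright enough in the mast cell and basophil list, beside 1.11% of all genes. Of the list's 13 genes, 6 were under the floor in all 5 arrays, Kit, Cpa3 and Fcer1a among them. Its 13 genes summed to 445 and 467 with Fos and to between 259 and 326 without. Mcpt1 is a large part of this sum, which therefore does not show that the other members read higher with Fos. The other bright members, Cma1 and Ms4a2, were above the floor in every array, and neither was separated. The other 15 genes of the higher side had gaps from 2.05 to 3.43-fold. They were Smyd5, a SET domain protein, the transcription factor Mycl, the GTPases Rhou and Rala, the actin-severing Scin, the collagen chain Col18a1, the vascular ligands Angpt2 and Edn1, the transporters Slc6a20b and Slc25a10, the microtubule regulator Stmn1, the RNA-binding Rbpms, and Cyp2d9, Clps and Pla2g2c.

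The 28 genes that read lower with Fos were mostly dim and spread over several functions. Creg1, which encodes a secreted and lysosomal glycoprotein, read 50.5 and 57.0 in the Fos+/+ arrays against 182, 183 and 261 in the Fos-/- arrays (3.18-fold, limma adjusted p = 0.156). Marco, a scavenger receptor of macrophages, read 108 and 223 against 761, 516 and 609 (2.31-fold). Lgals9, the lectin galectin 9, read 162 and 176 against 408, 501 and 468 (2.32-fold). For Creg1 and Lgals9 the Fos+/+ arrays were close to each other.

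St3gal5, the synthase of the ganglioside GM3, read 89.4 and 94.8 against 284, 232 and 271 (2.45-fold). Gstm3, a glutathione transferase, read 154 and 54.8 against 434, 322 and 432 (2.09-fold). Another probe set of Gstm3 read 298 and 641 against 277, 332 and 324, which overlapped with the opposite sign of the mean difference. Rnase4, a secreted ribonuclease, read 27.9 and 81.9 against 174, 500 and 442 (2.13-fold). Its Fos-/- arrays were not alike, since both infected cultures read far above the uninfected one. Hsbp1, a small protein that binds heat shock factor, read 87.6 and 101 against 206, 364 and 363 (2.04-fold) with the same order among the Fos-/- arrays.

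Secreted and surface immune genes were among the lower group. Il18, a cytokine that induces interferon gamma, read under the floor and 22.0 with Fos against 53.5, 62.4 and 84.8 without (2.43-fold). Il18bp, its secreted inhibitor, was under the floor in both Fos+/+ arrays and read 128, 51.5 and 71.0 in the others (at least 2.58-fold). Fpr2, a formyl peptide receptor of phagocytes, read 38.1 and 91.1 against 198, 269 and 228 (2.17-fold). Lyve1, a hyaluronan receptor of lymphatic vessels and some macrophages, was under the floor with Fos and between 56.3 and 60.7 without (at least 2.82-fold). These dim genes lie within reach of the floor, and the calls of Il18, Il18bp and Lyve1 were lost at a floor of 65.

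A pair of genes of prostaglandin metabolism lay on opposite sides of the gap. Ptges, which makes prostaglandin E2, read 156 and 108 with Fos against 44.5, 23.4 and 36.0 without (2.44-fold higher). Hpgd, which breaks prostaglandins down, was under the floor with Fos and read 114, 42.7 and 110 without (at least 2.13-fold lower). The pairing was noticed after the values were seen. Id1, an inhibitor of helix-loop-helix factors, read 72.4 and a value below 0 with Fos against 325, 147 and 172 without (2.03-fold). Lifr, a receptor of leukaemia inhibitory factor, was separated in 1 of its probe sets, which lay under the floor with Fos and read 55.4 without virus, 183 with deltaNFAT and 176 with GFP (at least 2.77-fold). Its brightest probe set read 46.0 and 175.9 with Fos against 95.6, 281 and 276, so there the genotypes overlapped and the call was lost. The other 14 lower genes had gaps from 2.02 to 2.72-fold. They were the docking protein gene Gab1, the GTPase Rab11a, the kinase Csnk1e, the LIM domain gene Csrp2, the peroxisomal enzyme Hsd17b4, the sulfotransferase Sult1a1, the phosphatase Ptprm, the transcription factor Zfhx3, the repair gene Rad23b, and Cytip, Sh3bp5, Smagp, Poldip3 and Cachd1. Rad23b changed sign when a gene's brightest probe set was used.

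**Figure D3:**
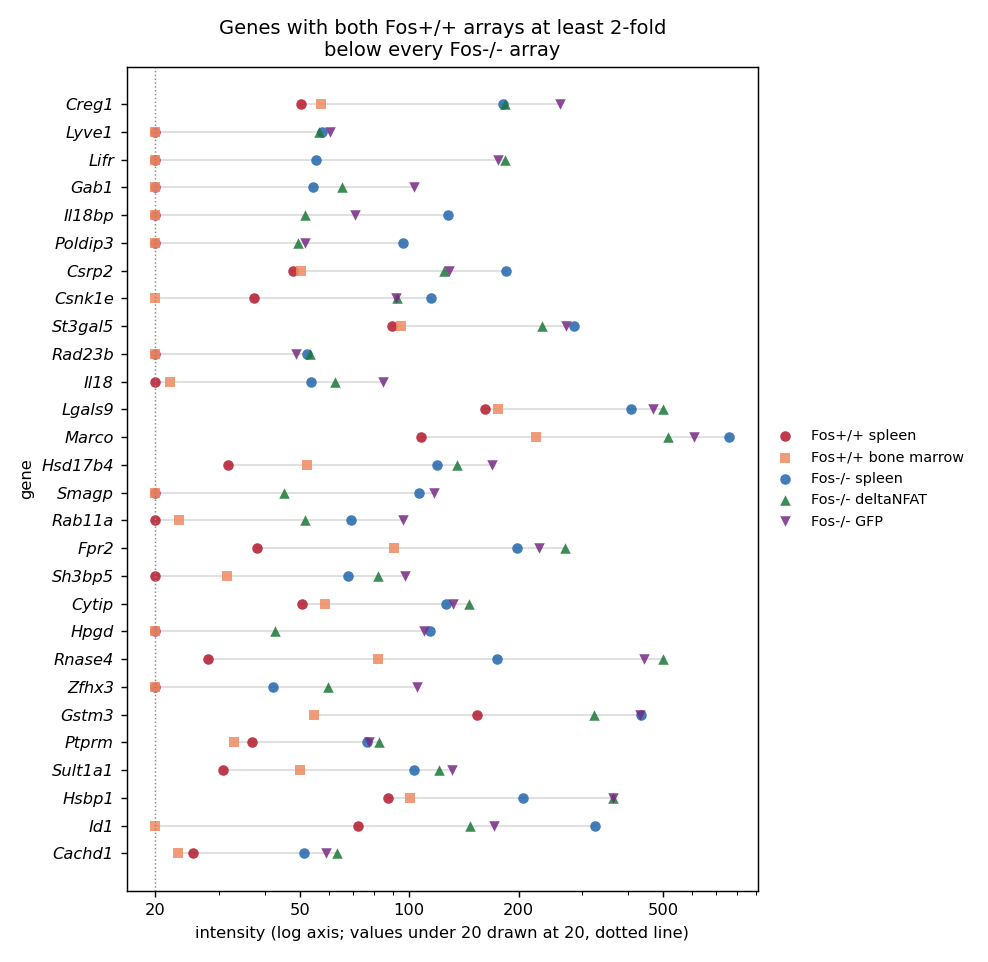
Intensity (log axis, values under 20 drawn at the dotted line) of the 28 genes that read lower in Fos+/+ cultures, ordered by gap, 1 point per array. By the rule of choice, both Fos+/+ points (red and orange) lie to the left of all 3 Fos-/- points. Of these genes, 9 have both Fos+/+ points at the floor.

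Markers of macrophages, the precursors that osteoclasts fuse from, read lower with Fos as a list. The 21 genes summed to 13327 and 15507 in the Fos+/+ arrays and to between 18316 and 20392 in the Fos-/- arrays, with a median log2 difference of -0.53 and 8 of 21 fitted probe sets lower at an unadjusted limma p of 0.05, against 4.11% of all. Marco was the 1 of 17 genes bright enough that was separated, beside 1.11% of all genes higher and 0.611% lower. The complement gene C1qa read 1218 and 1356 against 2448, 2205 and 2507, and C1qb read 1529 and 2044 against 2937, 2908 and 3297. Neither overlapped between the genotypes, but both stayed under 2-fold. A gap of any size on the lower side was seen for 590 of 5277 bright probe sets. In the other direction, the myeloid factor Spi1 read 1024 and 595 against 505, 340 and 336, and Cd68 read 1819 and 1352 against 1097, 1070 and 1097. Cd36 and Siglec1 were under the floor in all arrays.

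Of 11 neutrophil genes bright enough, Fpr2 was the 1 separated, on the lower side, beside 0.611% of all genes. The list's 19 genes summed to 2454 in Fos+/+ spleen and 13291 in Fos+/+ bone marrow, on either side of the 4858 to 10072 of the Fos-/- arrays. Of 15 T and NK cell genes, 9 were under the floor everywhere, among them Cd3d, Cd3e and Cd3g. The adaptor gene Lat was above it everywhere, at 169 and 202 with Fos and 156, 156 and 138 without. So was Cd4, at 25.0 and 129 with Fos and 167, 91.0 and 134 without. Their mean log2 differences had opposite signs, 0.31 for Lat and -1.16 for Cd4. Interferon response genes read highest in both infected cultures. Their 38 genes summed to 7934 and 7945 in the Fos+/+ arrays, to 7937 in Fos-/- spleen without virus, 13869 with deltaNFAT and 12032 with GFP. Of 22 such genes bright enough 0 were separated, beside 1.11% of all genes higher and 0.611% lower. Their median log2 difference was -0.52. The part of virus and of cell make-up in other results was not tested.

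**Figure D4:**
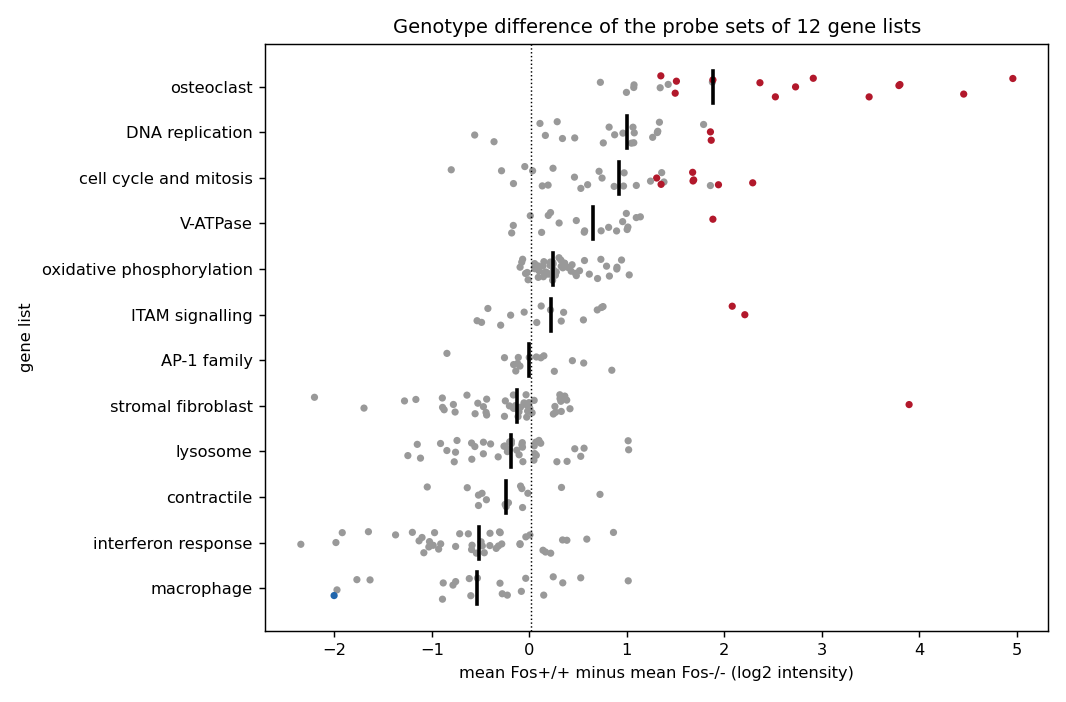
Each point is a fitted probe set of 1 of 12 gene lists, placed by its log2 difference, mean Fos+/+ minus mean Fos-/-; black bars mark list medians, the dotted line the median of all fitted probe sets, red and blue points the separated ones. The osteoclast median is farthest right at 1.88, followed by DNA replication (1.00), mitosis (0.92) and V-ATPase (0.65), and the macrophage (-0.53) and interferon (-0.52) medians lie farthest left.

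The arrays of one genotype differed in which of them set the gap. Among the higher probe sets, 42 had an untied highest Fos-/- array, and it was the deltaNFAT array in 25 (59.5%), the uninfected array in 10 (23.8%) and the GFP array in 7 (16.7%). Over all bright probe sets deltaNFAT was highest in 25.5% and GFP in 24.5%, the uninfected array making up the rest. These shares are a description without a test, since the value that decides which Fos-/- array is highest also entered the choice of the separated probe sets. Fos+/+ bone marrow was the lower of the Fos+/+ pair in 40 of 54 (74.1%), against 48.6% over all, with a median bone marrow over spleen log2 ratio of -0.43. In the lower group the GFP array was the lowest Fos-/- array in 2 of 28 (7.14%), against 33.0% over all. Bone marrow was the higher Fos+/+ array there in 14 of 19 untied probe sets (73.7%, against 51.4%). The shares for bone marrow and GFP are likewise without a test, since the values compared also set the gap that chose the probe sets.

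**Figure D5:**
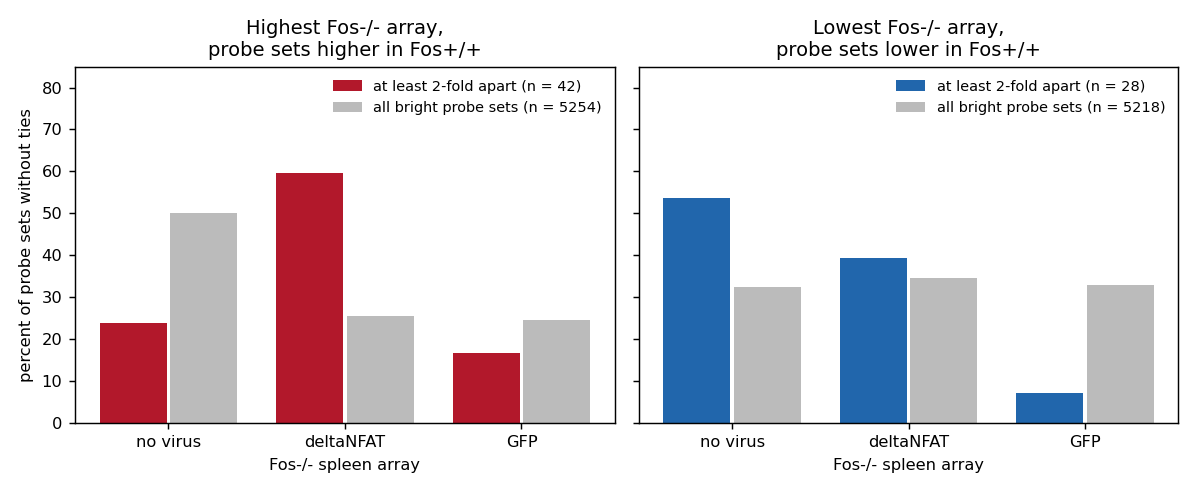
Bars give the percent of probe sets in which each Fos-/- array was the highest (left, probe sets higher in Fos+/+) or the lowest (right, probe sets lower in Fos+/+), with ties left out; coloured bars are separated and grey bars all bright probe sets. The deltaNFAT array is highest in 59.5% of the separated higher set against 25.5% of all, and the GFP array lowest in 7.14% of the lower set against 33.0%. The values compared also set the gap that chose the separated probe sets, so the bars are a description without a test.

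The 2-fold limit divides genes with nearly the same values. Just inside on the higher side lay Cdk1 and a probe set of Mmp9 (both 2.04-fold) and Stmn1 (2.05-fold), and just outside lay Sphk2 (1.997-fold), Rrm2 (1.99-fold) and Tmem229b (1.98-fold). On the lower side Cachd1 (2.02-fold), Id1 (2.03-fold) and Hsbp1 (2.04-fold) were just inside, and Ap2a2 (1.996-fold), Cd300c2 (1.98-fold) and Ctsh (1.98-fold) just outside. Separated genes were read by 33 other probe sets. Of the 15 bright enough to be fitted 13 had the same sign, the exceptions belonging to Gstm3 and Rad23b. The sign alone says little, since those of Gab1 and Rab11a differed by only -0.01 and -0.09 on the log2 scale. With a gene's brightest probe set alone, the calls of Smyd5, Col18a1 and Edn1 on the higher side and of Lifr, Gab1, Rad23b, Rab11a, Gstm3 and Ptprm on the lower side were lost.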

How the data were processed

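RNA of 5 co-cultures was measured on 1 one-colour oligonucleotide array each. The authors deposited 1 linear intensity per probe set and array; no source used here names the software or the scaling, and 20.3 to 22.4% of an array's values were at or below 0, with a 1st percentile between -133 and -77.6. Groups came from the sample titles. Gene names came from the platform annotation (1 symbol for 10855 probe sets, several for 396, none for 1237). Of the 10833 used, 10817 matched RefSeq (GRCm38.p6) by gene identifier and 0 symbols changed. The 66 control probe sets were left out.

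Values under 20 were set to 20 and log2 was taken. Gaps were computed per probe set, and a gene was called by any of its probe sets. Means were compared with limma 3.58.1 (lmFit, eBayes with an intensity trend; R 4.3.3) on probe sets with at least 2 arrays at 40 or more, with Benjamini-Hochberg adjustment. The p-values set the difference of the genotype means against the spread between arrays of one genotype. That spread holds differences of tissue and virus and is not replicate error, since each condition was measured once. The number of arrays also limits the precision. The gap rule and the fit were tested on simulated data. Other settings were the floor, brightness, gap size, quantile normalization, the probe sets used, the filter, the variance prior, virus as covariate, and leaving out each array.

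The comparison, the 32 gene lists and the rule for named genes (Fos, Nfatc1, the 15 widest gaps each way, the osteoclast list, up to 4 genes per other list) were chosen with earlier results of these data known. Other genes were named after their values were seen.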

Additional observations from a re-analysis of the deposited data

How the results depend on the processing

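Probe sets separated with Fos+/+ higher and lower numbered 54 and 28. They were 27 and 9 at a floor of 65 and 20 and 5 at 100. A brighter side of 80 left 37 higher and 14 lower. With the mean of a gene's probe sets, 41 of the 54 higher and 18 of the 28 lower probe sets kept their call. Any gap gave 894 and 590, a 4-fold gap 7 and 0. Leaving out 1 array gave 69 to 207 higher and 39 to 153 lower and 12 to 15 osteoclast genes; by construction this can only add. At a floor of 65 deltaNFAT was the highest Fos-/- array in 84.2% of the higher probe sets (16 of 19 untied, with 8 tied). Over all untied probe sets the share was 25.9% at that floor. The value that decides the 84.2% also entered the choice of the separated probe sets, so the share is a description without a test. The limma count of 1 higher became 0 at a floor of 10, with a brighter side of 80 and with virus as covariate, 2 with the brightest or with unsuffixed probe sets, 3 without a filter on dim probe sets (Cox6c, Hbb-y and Tap1, with Dcn lost), and 0 to 5 when 1 array was left out (0 to 1 lower). Without the deltaNFAT array the 5 were Calcr, Ctsk, Car2, Dcn and Mmp9. At floors of 65 and 100 the 1 call was Car2, not Dcn (adjusted p 0.0971 and 0.109 for Dcn in limma). Over all settings the adjusted p of Dcn ran from 0.0194 to 0.546. Rad23b reversed with the brightest probe set (gap -0.41 on the log2 scale), and the difference of Gstm3 turned to 0.50 there. Under every alternative that keeps the 2-fold gap 15 of 54 higher and 3 of 28 lower probe sets kept their call, and 37 and 16 apart from the floors of 65 and 100 and the brightness of 80. Quantile normalization moved the median log2 difference of all probe sets from 0.02 to -0.01. The cause of these changes was not tested. No paired analysis was possible because each condition was measured once. Only the uninfected spleen arrays of the genotypes were alike in tissue and virus.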

Other observations

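Several bright genes outside the 2-fold gap did not overlap between the genotypes, and were picked after their values were seen. Of 5277 bright probe sets, 894 had a gap of any size on the higher side and 590 on the lower. Of the lysosomal hydrolases, 3 are given that read lower with Fos. The cathepsin gene Ctsh read 419 and 362 in the Fos+/+ arrays and 863, 829 and 840 in the Fos-/- arrays, the mannosidase gene Man2b1 read 380 and 438 against 914, 860 and 1155, and Ctsc, cathepsin C, read 190 and 145 against 372, 393 and 344. The genotypes did not overlap in any of the 3, while the osteoclast cathepsin gene Ctsk lay on the other side. Ifi30, a lysosomal thiol reductase used in antigen processing, read higher with Fos, at 1034 and 618 against 322, 328 and 270. Anxa2, a membrane-binding annexin, read 1777 and 1368 against 870, 802 and 840. Gpc4, a heparan sulphate proteoglycan, read 243 and 241 against 496, 510 and 461. The limma adjusted p of these genes lay between 0.156 and 0.186, so none of them passed.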
